A study of Homo sapiens with 60 samples.

Results

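Sagunja-tang, a decoction of ginseng, Atractylodes rhizome, Poria and licorice in its classical form, was compared with the vehicle at its top dose of 500 µg/mL in HT29 cells, an established human colorectal adenocarcinoma line. The comparison took 6 of the 60 libraries of the series, chosen by their labels: 3 of cells given a hot water extract of Sagunja-tang at 500 µg/mL and 3 of cells given the vehicle dimethyl sulfoxide (DMSO), all sampled after 24 h. Which herbs went into this extract is not stated in the labels. The labels give the vehicle as 0.1% DMSO and the design text as 2%, and the DMSO content of the extract samples is not stated. The design text adds that extracts inhibitory at lower concentrations were given at those concentrations instead, whereas the labels of these samples name 500 µg/mL. The series also holds 3 libraries each of Sagunja-tang at 100 and 20 µg/mL, of the formula Samul-tang and of single herbs, which served here for reference. All cells were of 1 line. The labels do not state whether replicates came from different cultures, and the p-values therefore rest on a spread between libraries that could be technical.

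Chemokines are small secreted proteins that draw leukocytes into tissue. In gut epithelium, receptors of innate immunity pass signals from microbial products and cytokines to NF-kB, a family of transcription factors that is held in the cytoplasm by inhibitor proteins until the signal arrives. NF-kB then switches on neutrophil-attracting CXC chemokines and CCL20 together with its own inhibitors, which end the response. The same epithelium secretes complement factors, protease inhibitors and acute phase proteins into the lumen, and carries antibodies across by the polymeric immunoglobulin receptor.

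The 6 libraries held 20701950 to 27491849 counts. Of 15 markers of colonic epithelium, 14 were above 1 CPM, that is, counts scaled to a common library size, in all 6, with the keratin KRT8 the highest. At 0 in all 6 were 4 of 13 leukocyte markers (CD3D among them), 3 of 11 fibroblast markers (COL1A2 among them) and 3 of 7 endothelial markers (CDH5 among them). Above 1 CPM in all 6 were 3 leukocyte markers, 0 fibroblast markers and 1 endothelial marker. The highest of each list were CD68, COL1A1 and PECAM1, at means of 6.51, 1.34 and 1.74 CPM. Of 7 hepatocyte markers 1 was above 1 CPM in all 6, SERPINA1 at a mean of 406 CPM. Summed leukocyte markers were 11.96 to 14.6 CPM in the vehicle and 11.2 to 11.9 CPM with Sagunja-tang. The libraries were divided into a first and a second set by their sample codes. Codes B1, 5 and 6-1 made up the first set, the vehicle among them, and codes 6-2, 6-3 and 7 the second one, both formulae among them. The titles of all libraries name the same batch, B, and no label states a set within it, a run or a date. The division is a reading of the codes made with the expression data known, and every result with the library set term rests on it. The first principal component of all fitted libraries (15.71% of the variance) ran mostly with that division. The vehicle libraries lay at -25.305 to -8.5426 on it and the Sagunja-tang libraries at 14.906 to 20.918. Vehicle replicate 3 lay farthest out and differed most from the other vehicle libraries. A difference from the vehicle was therefore also fitted with a term for library set, which the Cinnamomi Cortex and Astragali Radix libraries, found in both sets, allow. In each of their groups only replicate 1 lies in the first set, so the term rests on few libraries. Replicate 2 of Cinnamomi Cortex at 500 µg/mL is in the second set but lay at -15.994 on the component, among the first set. Sagunja-tang was also set against Samul-tang at the same dose and in the same set.

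A group of 17 genes rose past 1.5-fold with Sagunja-tang, and most of them encode chemokines, complement factors or secreted defence proteins of epithelium. They were the chemokines CXCL1, CXCL2, CXCL3, CXCL5, CXCL6, CXCL8 and CCL20, the cytokine IL17C, the defence genes PI3, PIGR, C3, CFB, SAA1 and CEACAM7, the amino acid oxidase IL4I1, the RNA gene MIR3142HG, and the gene ENSG00000279767, for which no symbol or position was found. That is 0.104% of the 16356 genes tested, by edgeR's test against a change of at most 1.5-fold with Benjamini-Hochberg adjusted p under 0.05. By the same test 0 genes fell past 1.5-fold, while 128 lower genes had an unadjusted p under 0.05. With the library set term 12 genes rose past 1.5-fold, or 0.0734%, all of them among the 17, and 16 of the 17, all but MIR3142HG, still differed from the vehicle by the quasi-likelihood test. The filter on low counts took in all groups, and CXCL5, C3, SAA1, IL17C and MIR3142HG passed it only through Sagunja-tang libraries. Their place among the genes tested, in the 17 and in the list counts and medians below is therefore not independent of their rise. The same holds for the counts of promoters and for the comparisons of the 17 with Samul-tang and the other treated groups.

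**Figure D1:**
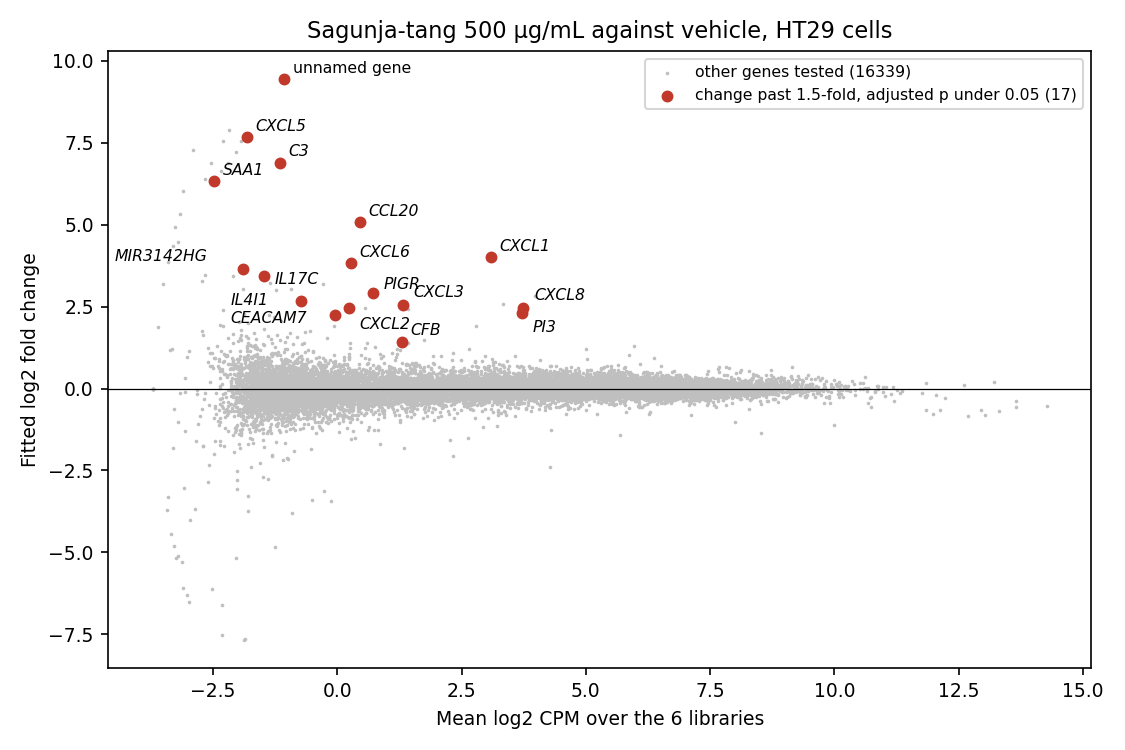
Fitted log2 fold change of Sagunja-tang 500 µg/mL against vehicle (vertical) over the mean log2 CPM of the 6 libraries (horizontal), 1 point per gene tested. The 17 genes in red passed the test of a change past 1.5-fold, all upward, while the grey points of well expressed genes lie close to 0. Fitted values of genes at 0 counts in a group depend on the prior count and bound nothing.

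Without a minimum size, 3303 genes (20.2%) passed the edgeR quasi-likelihood test, 1913 higher (11.7%) and 1390 lower (8.5%). Most of these changes were small: 2821 of them (85.4%) were under 0.5 in log2 fold change, and the median size was 0.27. Of the called genes 122 changed at least 2-fold, 60 higher (0.367% of genes tested) and 62 lower. With the library set term 346 genes (2.12%) were called, 176 higher (1.08%) and 170 lower, and 290 genes were called both ways. Without vehicle replicate 3 the count without that term was 1425, and without Sagunja-tang replicate 3 it was 1977. Sagunja-tang and library set cannot be told apart for a gene that was called only without the term.

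The promoters of the chemokines are shown because several of these genes share a short sequence close to their start. All sequences come from RefSeq on GRCh38.p14, which has a promoter entry for 12 of the 17 genes, not for C3, IL17C, PI3, SAA1 and ENSG00000279767. Each entry runs from 250 bases before to 50 bases after the annotated start, and both strands were searched for GGAATTTCC and GGGNNTTTC, 2 forms of the kappa-B element to which NF-kB binds, and for TGANTCA, the AP-1 element, and TATAAA. The part before the start is given for CXCL1 (chr4:73869143-73869392, plus strand), CXCL8 (chr4:73740319-73740568, plus strand) and CCL20 (chr2:227813592-227813841, plus strand), 5′ to 3′, with matches to either kappa-B form in capitals.
CXCL1: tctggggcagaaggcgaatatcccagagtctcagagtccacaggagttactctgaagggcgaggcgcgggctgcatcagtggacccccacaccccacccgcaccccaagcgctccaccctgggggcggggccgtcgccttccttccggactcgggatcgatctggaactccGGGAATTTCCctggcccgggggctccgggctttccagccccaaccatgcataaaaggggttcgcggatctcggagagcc
CXCL8: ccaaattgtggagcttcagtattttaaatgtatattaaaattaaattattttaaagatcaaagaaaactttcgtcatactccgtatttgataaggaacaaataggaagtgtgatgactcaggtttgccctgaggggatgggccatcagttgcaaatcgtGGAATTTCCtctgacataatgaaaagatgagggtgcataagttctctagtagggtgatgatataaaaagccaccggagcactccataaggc
CCL20: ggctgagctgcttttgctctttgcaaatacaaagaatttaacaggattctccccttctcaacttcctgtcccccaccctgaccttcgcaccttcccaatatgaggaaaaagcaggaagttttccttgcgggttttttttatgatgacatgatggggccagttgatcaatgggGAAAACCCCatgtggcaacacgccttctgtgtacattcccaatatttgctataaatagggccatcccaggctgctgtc

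In CXCL1 both forms match at the same place and overlap, and the match begins 79 bases before the start. In CXCL8 GGAATTTCC begins 91 bases before the start, and in CCL20 the match to GGGNNTTTC is on the other strand and begins 78 bases before the start. The starts meant here are those of RefSeq. The gene positions given further on are from GENCODE and begin earlier for CXCL8, CCL20 and CXCL6, so the sequences shown for these genes overlap those positions. The element and 11 bases on either side follow for the other members with a match, to show how alike the flanks are: CXCL2 (chr4:74099253-74099284, minus strand), CXCL3 (chr4:74038748-74038779, minus strand), CXCL5 (chr4:73998748-73998779, minus strand), CXCL6 (chr4:73836577-73836608, plus strand) and MIR3142HG (chr5:160468120-160468150, plus strand).
CXCL2: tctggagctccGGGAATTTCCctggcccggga
CXCL3: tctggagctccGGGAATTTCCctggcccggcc
CXCL5: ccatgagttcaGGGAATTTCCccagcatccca
CXCL6: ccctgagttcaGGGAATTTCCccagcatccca
MIR3142HG: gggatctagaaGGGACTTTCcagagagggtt

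GGAATTTCC was found in 6 of the 12 promoters and in 0.461% of all 35116 RefSeq promoters of that length, and GGGNNTTTC in 7 of the 12 and in 4.78% of all. Both overlap in CXCL1, CXCL2, CXCL3, CXCL5 and CXCL6. TGANTCA was found in 1 of the 12 (CXCL8) and 7.71% of all, and TATAAA in 3 of the 12 (CCL20, CFB and CXCL8) and 11.5% of all. The CXC chemokines of the group are neighbours and copies of one another on chromosome 4, so their promoters are not independent examples. CXCL5 and MIR3142HG, both among the 12, passed the filter on low counts only through Sagunja-tang libraries. A match is a description of letters, and binding was not measured. Of the chemokines listed, 15 have a promoter entry, 8 of them with GGAATTTCC and 7 with GGGNNTTTC. GGAATTTCC is also in the promoters of CXCL10 and CXCL11, and GGGNNTTTC in that of CXCL9, and these genes were not among the chemokines called.

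Of 18 chemokines listed, 14 were expressed enough to be tested. Of these 8 rose and 0 fell, where 11.7% of all genes rose. Their median log2 fold change was 1.97 against 0.00 over all genes. CXCL1, a ligand of the neutrophil receptor CXCR2 (chromosome 4, 73869393 to 73871242, plus strand), was at 1.97, 1.74 and 2.66 CPM in the vehicle and at 34.5, 33.5 and 33.9 CPM with Sagunja-tang. Its log2 fold change was 4.02 (SE 0.17, adjusted p = 4.78e-23). The lowest treated library lay far above the highest vehicle library, and the treated libraries were close to one another. CXCL8, interleukin-8, the best known neutrophil attractant (chromosome 4, 73740506 to 73743716, plus strand), was at 5.68, 5.39 and 6.02 CPM in the vehicle. With Sagunja-tang it was at 29.1, 29.8 and 34.7 CPM, a log2 fold change of 2.46 (SE 0.10, adjusted p = 8.67e-24). Its groups did not overlap, as was so for 21.1% of all genes in the upward direction.

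CCL20, the ligand of CCR6 on dendritic cells, B cells and Th17 cells (chromosome 2, 227805739 to 227817564, plus strand), rose from a low level. It was at 0.189, 0.255 and 0.15 CPM in the vehicle and at 7.38, 6.84 and 6.55 CPM with Sagunja-tang. The log2 fold change was 5.08 (SE 0.27, adjusted p = 2.44e-19). CXCL6, a ligand of CXCR1 and CXCR2 (chromosome 4, 73836497 to 73849064, plus strand), rose in the same way. It was at 0.189, 0.425 and 0.251 CPM in the vehicle and at 4.66, 3.67 and 4 CPM with Sagunja-tang, a log2 fold change of 3.82 (SE 0.26, adjusted p = 5.04e-15).

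CXCL2 and CXCL3, both CXCR2 ligands, rose by nearly the same amount. CXCL3 was at 1.02, 0.934 and 1 CPM in the vehicle and at 5.81, 5.85 and 5.66 CPM with Sagunja-tang, a log2 fold change of 2.54 (SE 0.19). CXCL2 was at 0.303, 0.595 and 0.502 CPM in the vehicle and at 3.23, 2.25 and 2.23 CPM with Sagunja-tang, a log2 fold change of 2.46 (SE 0.24). CXCL1, CXCL2 and CXCL3 are near-identical copies, as are CXCL5 and CXCL6, and expected counts divide shared reads among copies, so their values relative to one another are uncertain. CXCL5, a further CXCR2 ligand, had 0 counts in all 3 vehicle libraries and 18, 32 and 26 counts with Sagunja-tang. Against a floor of 3 counts over the vehicle group it was at least 22.9-fold higher.

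Other chemokines moved little or were too low to judge. CCL15, which attracts monocytes, rose slightly, from 12.6, 12.6 and 12 CPM to 15.8, 15.5 and 18.7 CPM (log2 fold change 0.43, adjusted p = 0.0467). That call was lost with the library set term (adjusted p = 0.768) and without any single library of the 6. CXCL16, a membrane-bound chemokine, and CCL28, a mucosal one, had log2 fold changes of -0.08 (adjusted p = 0.637) and 0.16 (adjusted p = 0.402). CXCL10, a T cell attractant induced by interferon, was at 0, 0.34 and 0.0502 CPM in the vehicle and at 0.231, 0.4 and 0.46 CPM with Sagunja-tang, and the groups overlapped (adjusted p = 0.0946). The 7 chemokines other than CCL15 were the ones still called with the library set term.

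**Figure D2:**
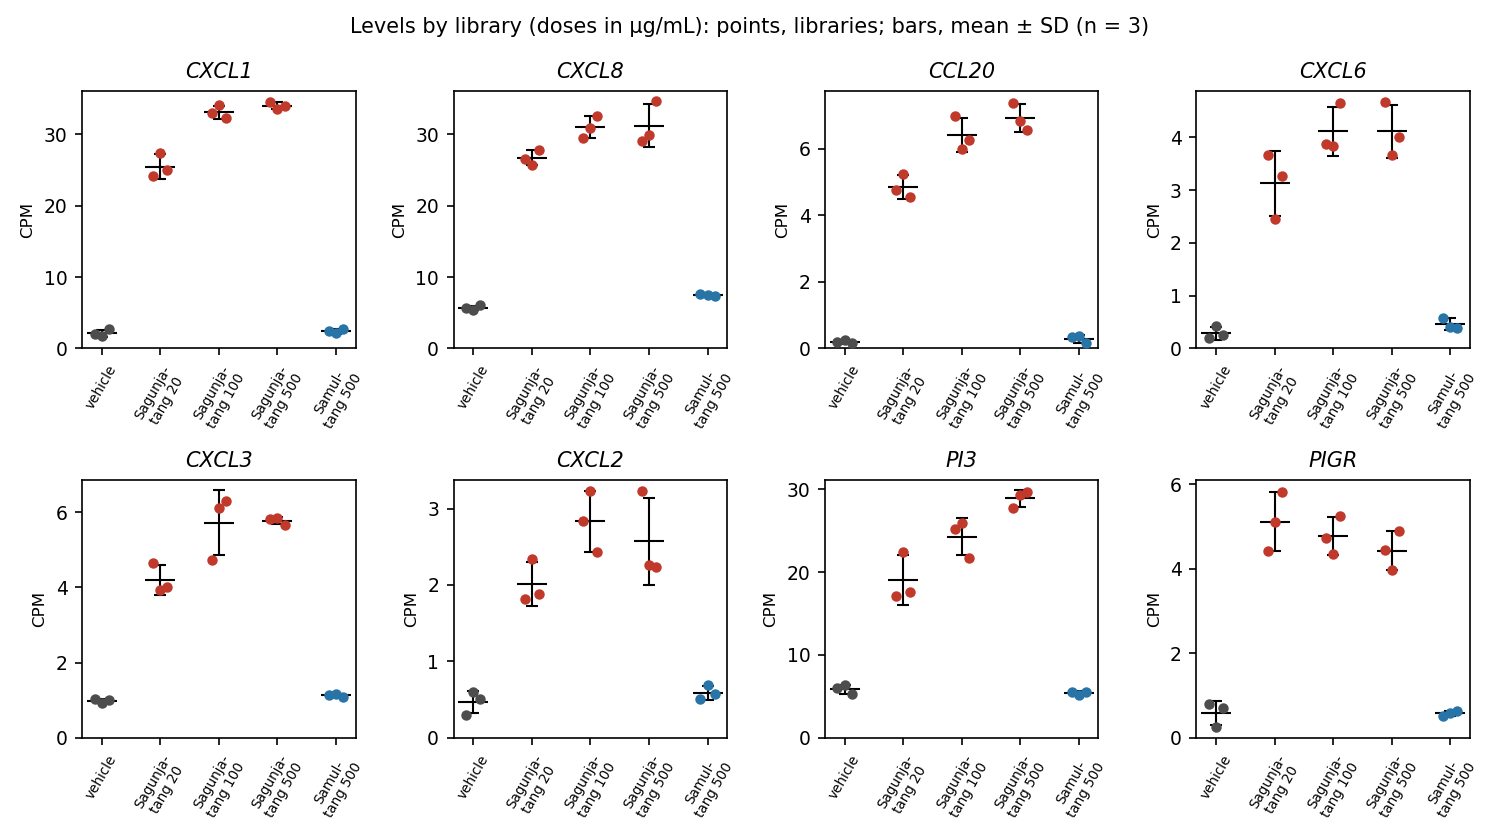
CPM of 8 of the genes in each library of the vehicle (grey), Sagunja-tang at 20, 100 and 500 µg/mL (red) and Samul-tang at 500 µg/mL (blue), with 3 libraries a group and bars for mean ± SD; each vertical axis starts at 0. All red points lie above the grey and blue ones, and the means of the red groups differ from one another by less than from the vehicle mean. For PI3 the means were 5.87 CPM in the vehicle, 19.1 CPM at 20 µg/mL and 28.9 CPM at 500 µg/mL.

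Of 25 cytokines and growth factors of inflammation, 13 were tested. Of these 3 rose and 0 fell, with a median of -0.00, where 11.7% of all genes rose. IL17C, an epithelial cytokine that acts back on the epithelium (chromosome 16, 88638591 to 88640473, plus strand), was at 0.0757, 0.0849 and 0.0502 CPM in the vehicle and at 0.738, 0.873 and 0.849 CPM with Sagunja-tang. Its log2 fold change was 3.44 (SE 0.59, adjusted p = 8.94e-05). IL32, a proinflammatory cytokine, had a log2 fold change of 1.75 (SE 0.36, adjusted p = 0.000771), and CSF1, the macrophage growth factor, one of 1.06 (SE 0.22, adjusted p = 0.000756). CSF1 was not called with the library set term (adjusted p = 0.0813), whereas IL17C and IL32 were. IL23A, a subunit of interleukin-23, was at 1.35 and not called (adjusted p = 0.058).

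In the list of NF-kB subunits, inhibitors and feedback genes, 14 of 31 tested members (of 32) rose and 0 fell, where 11.7% of all genes rose. The other 17 were not called, and the median was 0.15. With the library set term 8 were called higher. ICAM1, the adhesion molecule for leukocyte integrins, was at 4.92, 4.67 and 5.62 CPM in the vehicle and at 8.81, 8.91 and 9.34 CPM with Sagunja-tang. Its log2 fold change of 0.84 (SE 0.11, adjusted p = 9.3e-07) was the largest of the list. BIRC3, a ubiquitin ligase of TNF receptor signalling, was at 9.76, 9.68 and 6.57 CPM in the vehicle and at 13.8, 14.6 and 13.4 CPM with Sagunja-tang, a log2 fold change of 0.67 (SE 0.14). For both genes all treated libraries were above all vehicle libraries, yet both log2 changes were smaller than those of the 7 chemokines past 1.5-fold.

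TNFAIP3, the deubiquitinase A20 that shuts the pathway off, had a log2 fold change of 0.67 (SE 0.16), and ZC3H12A, the ribonuclease that degrades cytokine mRNAs, one of 0.47 (SE 0.09). TNFAIP2, SOD2, the mitochondrial superoxide dismutase, and NFKB2, the precursor of the subunit p52, had 0.52, 0.49 and 0.49. These 5 genes, ICAM1 and BIRC3 were also called with the library set term. NFKBIA, the main cytoplasmic inhibitor, was not called without the term (0.15, adjusted p = 0.269) and was called with it (0.45, adjusted p = 0.000216). RELB, NFKBIE and TNIP1 were called only without it, with log2 fold changes of 0.38, 0.31 and 0.19. RELB and NFKBIE also lost the call when single libraries were left out, at adjusted p up to 0.136 without vehicle replicate 3 and 0.115 without vehicle replicate 1. The mRNAs of the DNA-binding subunits RELA and NFKB1 were at -0.18 (adjusted p = 0.0532) and 0.11 (adjusted p = 0.133). RELA lay close to the threshold and was called lower under 6 of 12 alternatives, with adjusted p down to 0.0162 with no filter on low counts.

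The mRNAs of the receptors and adaptors upstream changed little. Of 27 tested members among 35, 2 rose and 2 fell, where 11.7% of all genes rose and 8.5% fell. The log2 fold changes ran from -0.27 to 0.27. SIGIRR, an inhibitory receptor, and the kinase IRAK1 rose by 0.24 and 0.23 on the log2 scale. TAB2 and TRAF6, which link receptors to the NF-kB kinases, fell by 0.27 and 0.19 on that scale. IRAK1 was not called without Sagunja-tang replicate 1 or 3 or vehicle replicate 3 (adjusted p up to 0.0791), nor TRAF6 without Sagunja-tang replicate 1 or 2 or vehicle replicate 2 or 3 (up to 0.332). None of these 4 was called with the library set term or against Samul-tang. TLR4, the receptor of bacterial lipopolysaccharide, was at 15.6, 15.6 and 18.1 CPM in the vehicle and 17.5, 16.9 and 16.6 CPM with Sagunja-tang (log2 fold change 0.05, adjusted p = 0.735), and its adaptor MYD88 was at -0.10 (adjusted p = 0.303). The levels of both mRNAs were thus close in the 2 groups. Whether their proteins or the signals through them differed was not tested.

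Epithelial defence genes split into a few that rose strongly and a few that fell slightly. Of 35 listed, 24 were tested, of which 10 rose and 4 fell, with a median of 0.30, where 11.7% of all genes rose and 8.5% fell. PI3, the elastase inhibitor elafin that is secreted against neutrophil proteases (chromosome 20, 45174876 to 45176544, plus strand), was at 6.02, 6.33 and 5.27 CPM in the vehicle and at 27.8, 29.3 and 29.7 CPM with Sagunja-tang. Its log2 fold change was 2.29 (SE 0.13, adjusted p = 7.16e-19). PIGR, the polymeric immunoglobulin receptor that carries IgA to the lumen (chromosome 1, 206928518 to 206946466, minus strand), was at 0.795, 0.255 and 0.702 CPM in the vehicle. With Sagunja-tang it was at 4.43, 3.96 and 4.88 CPM, a log2 fold change of 2.91 (SE 0.29, adjusted p = 6.01e-10). Both genes separated the groups without overlap.

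Complement and acute phase genes moved the same way. C3, the central complement protein (chromosome 19, 6677704 to 6730562, minus strand), had 1 count in the vehicle group and 44, 64 and 68 counts in the Sagunja-tang libraries, a ratio of 159 with a 95% counting interval of 28.2 to 6312. CFB, complement factor B (chromosome 6, 31945650 to 31952084, plus strand), was at 1.59, 1.06 and 1.76 CPM in the vehicle and at 4.52, 3.67 and 3.72 CPM with Sagunja-tang, a log2 fold change of 1.43 (SE 0.18, adjusted p = 5.05e-07). SAA1, an acute phase protein with near-identical copies, had 0 counts in the vehicle and 4, 11 and 15 with Sagunja-tang, at least 9.03-fold higher against a floor of 3 counts over the group. The floors and counting intervals cover counting error only.

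CEACAM7, a membrane protein of colonic surface cells, rose while its relatives fell. It was at 0.265, 0.297 and 0.702 CPM in the vehicle and at 1.8, 2.07 and 1.91 CPM with Sagunja-tang, a log2 fold change of 2.24 (SE 0.34, adjusted p = 1.22e-05). CEACAM1, CEACAM5 and CEACAM6 had log2 fold changes of -0.33, -0.35 and -0.23, which were not called with the library set term and were 0.04 to 0.11 against Samul-tang. Without vehicle replicate 3 none of these 3 decreases was called (adjusted p = 0.13, 0.235 and 0.074), and that of CEACAM5 was also lost without vehicle replicate 2 or Sagunja-tang replicate 1 or 3. DMBT1, a scavenger protein of mucus, had 1.55 (SE 0.32) and NOXO1, the organizer of the epithelial NADPH oxidase, 0.57 (SE 0.13), neither called with the term (adjusted p = 0.0809 and 0.437). PTGS2, cyclooxygenase-2, had 0.19 (SE 0.06) and was not called with the term or without vehicle replicate 2 or 3 or Sagunja-tang replicate 1 (adjusted p up to 0.25). REG4, a secreted lectin, fell by 0.46 on the log2 scale (SE 0.08) and was also called with the term. LCN2, the siderophore-binding lipocalin, was at 106, 114 and 119 CPM in the vehicle and at 137, 143 and 132 CPM with Sagunja-tang. It missed the threshold without the term (0.28, adjusted p = 0.0599) and passed it with the term (0.57, adjusted p = 0.000478), although its groups did not overlap.

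Of 40 interferon response genes 11 rose and 0 fell, with a median of 0.26, where 11.7% of all genes rose and 8.5% fell. The largest changes were in IFI44L (log2 fold change 1.38, SE 0.44), CMPK2 (1.04, SE 0.19), IFI27 (0.83, SE 0.15) and OAS2 (0.78, SE 0.22), all of them genes that interferons induce. ISG15, a ubiquitin-like protein, had 0.46 (SE 0.12) and was not called with the library set term (adjusted p = 0.415) or without vehicle replicate 3 (0.0712), while OAS3 had 0.27 (SE 0.05) and was called with the term. The vehicle libraries differed among themselves at these genes: OAS2, a sensor of double-stranded RNA, was at 2.35, 3.99 and 2.41 CPM in the vehicle and at 4.11, 4.91 and 5.95 CPM with Sagunja-tang. The calls of OAS2 and IFI44L were lost without vehicle replicate 1 or 3 or Sagunja-tang replicate 3, at adjusted p up to 0.0728 and 0.153. With the library set term 6 of the 40 were called, IFI44L not among them (adjusted p = 0.0631). Of 18 genes of antigen presentation by class I, 6 rose and 1 fell, beside 11.7% and 8.5% of all genes. With the term 0 were called by edgeR's test. Among those that rose were NLRC5, the transactivator of class I genes (1.06, SE 0.32), and the peptide transporter subunit TAP1 (0.46, SE 0.13). NLRC5 was not called without vehicle replicate 1 or 3 or Sagunja-tang replicate 1 or 3 (adjusted p up to 0.0687), nor TAP1 without vehicle replicate 1 or Sagunja-tang replicate 3 (up to 0.0703).

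Set against Samul-tang at 500 µg/mL, a decoction given at the same nominal dose whose libraries lie in the same set, Sagunja-tang differed in 52 genes (0.318%), 47 higher (0.287%) and 5 lower (0.0306%). Of the 47 higher genes 35 were members of the 5 lists of chemokines, cytokines, NF-kB genes, epithelial defence and interferon response. Together these lists hold 122 tested genes. They are the only lists with a member called higher here, so their share of the 47 is not independent of that result. Of the 17 genes past 1.5-fold against the vehicle, 15 were called here too, all but SAA1 and ENSG00000279767. Among the 15 are CXCL5, C3, IL17C and MIR3142HG, which passed the filter on low counts only through Sagunja-tang libraries. The Sagunja-tang libraries are shared by both comparisons, so these counts are not independent of each other.

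The chemokines stood apart from Samul-tang by nearly as much as from the vehicle. CXCL1 was at 2.38, 2.1 and 2.77 CPM with Samul-tang, and its log2 difference was 3.81 (SE 0.16, adjusted p = 8.97e-23). CCL20 was at 0.351, 0.361 and 0.159 CPM, a difference of 4.58 (SE 0.24, adjusted p = 2.31e-19), and PI3 at 5.54, 5.17 and 5.53 CPM, a difference of 2.42 (SE 0.12, adjusted p = 6.63e-20). CXCL8 was at 7.64, 7.48 and 7.38 CPM with Samul-tang, a little above the vehicle, and differed by 2.06 (SE 0.09, adjusted p = 5.08e-22). CXCL5 had 0 counts in all Samul-tang libraries and was at least 27.7-fold higher with Sagunja-tang.

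Of the 31 NF-kB genes tested, 8 were higher with Sagunja-tang than with Samul-tang and 0 lower, among them ICAM1 (0.88, SE 0.11), BIRC3 (0.85, SE 0.14), TNFAIP3 (0.82, SE 0.16) and ZC3H12A (0.56, SE 0.09). Of the 24 defence genes 8 were higher and 0 lower; LCN2 (0.71, SE 0.11) and MMP7, the protease that activates defensins (0.52, SE 0.08), were among them. Against the vehicle MMP7 had 0.33 (SE 0.08), not called without vehicle replicate 3 (adjusted p = 0.0687). Of 40 interferon genes 9 were higher and 0 lower, with OAS2 at 1.42 (SE 0.22), IFIT1 at 0.76 (SE 0.14), MX1 at 0.69 (SE 0.14) and IRF9 at 0.57 (SE 0.11). Against the vehicle IFIT1, MX1 and IRF9 were not called, though 1, 2 and 5 of 12 alternatives called them. The median of the list was 0.36 against Samul-tang and 0.26 against the vehicle. OAS2 was at 1.56, 1.52 and 2.48 CPM with Samul-tang, mostly below the vehicle libraries, so that its difference between the formulae exceeded that from the vehicle. Of the 12 genes called higher that were in none of the 5 lists, IL4I1 and MIR3142HG were past 1.5-fold against the vehicle. Of the rest, SDC4, a heparan sulphate proteoglycan, and SLFN5, a member of the Schlafen family, were picked after their values were seen, with differences of 0.50 (SE 0.08) and 0.40 (SE 0.05).

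**Figure D3:**
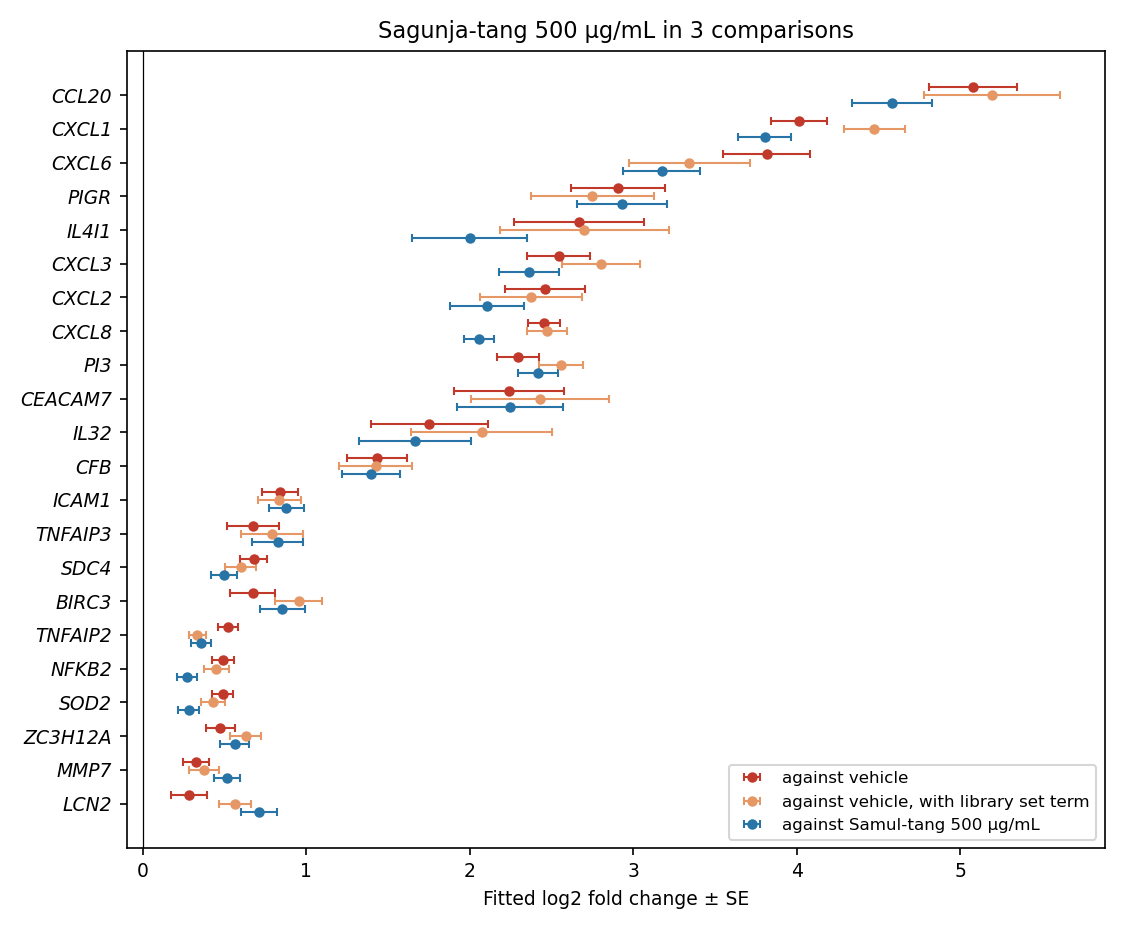
Fitted log2 fold change ± SE of 22 genes with Sagunja-tang 500 µg/mL against vehicle (red), against vehicle with the library set term (orange) and against Samul-tang 500 µg/mL (blue). The chemokines, PIGR, IL4I1, PI3 and CEACAM7 lie at 2 or more in every fit, and LCN2 and BIRC3 lie higher in the orange and blue fits than in the red one.

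Of the 5 genes lower with Sagunja-tang than with Samul-tang, 4 were targets of NRF2, the regulator of antioxidant and detoxifying enzymes. AKR1B10, an aldo-keto reductase, was at 98.7, 88.3 and 86.8 CPM in the vehicle, 113, 98.3 and 107 CPM with Sagunja-tang and 137, 141 and 141 CPM with Samul-tang. It thus lay between the other groups, higher than the vehicle (0.21, SE 0.06) and lower than Samul-tang (-0.40, SE 0.06). Relative to the vehicle SLC7A11, the cystine transporter, was at -0.02 and not called, and it was at -0.33 (SE 0.07) against Samul-tang. The fifth lower gene was ALDH3A1, an aldehyde dehydrogenase, at -0.34 against Samul-tang, named after its values were seen. AKR1C2, a steroid-reducing member of the same family with near-identical copies, and ME1, the malic enzyme, showed the same order, at 0.39 and 0.24 against the vehicle and -0.45 and -0.17 against Samul-tang. Against the vehicle 11 of 25 NRF2 targets rose and 1 fell (median 0.14), where 11.7% of all genes rose and 8.5% fell. With the library set term 3 were called, ME1 and the glutathione synthesis subunit GCLM among them. AKR1C3 and TXNRD1, a thioredoxin reductase, had 0.55 and 0.39 and were not called with the term. Nor were AKR1B10 and AKR1C2 (adjusted p = 0.0921 and 0.079), so their order relative to the vehicle cannot be told apart from library set. Against the vehicle AKR1B10 and GCLM lost the call without vehicle replicate 3 or Sagunja-tang replicate 1 (adjusted p up to 0.0693 and 0.0702), and AKR1C2 without vehicle replicate 2 or Sagunja-tang replicate 1 (up to 0.0555).

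**Figure D4:**
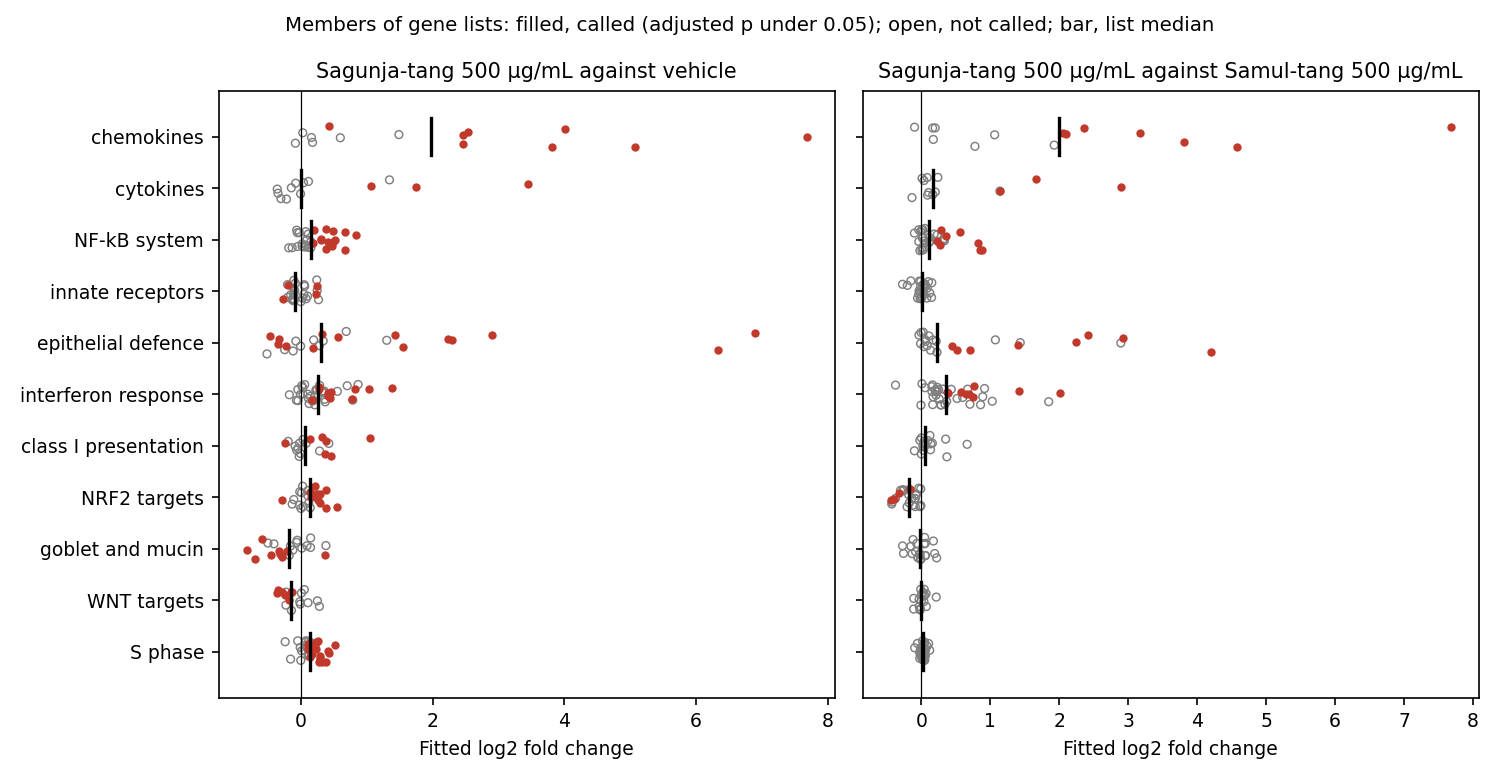
Fitted log2 fold change of each tested member of 11 gene lists with Sagunja-tang 500 µg/mL, against vehicle on the left and against Samul-tang 500 µg/mL on the right; filled points passed the edgeR test, open points did not, and bars mark list medians. The 7 chemokines and 6 defence genes past 1.5-fold against the vehicle lie to the right of 0 in both panels, while 4 called defence genes lie to the left of 0 in the left panel. Called goblet, WNT and S phase genes appear in the left panel and not in the right one.

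The 500 µg/mL dose differed little from the 20 µg/mL dose. PI3 alone was called between them (0.00611% of genes), at 28.9 ± 0.998 CPM against 19.1 ± 2.97 CPM (SD, n = 3), a log2 difference of 0.60 (adjusted p = 0.0249). At 100 µg/mL PI3 was at 24.3 ± 2.25 CPM (SD, n = 3). No gene was called higher when any 1 of the 3 libraries at 500 µg/mL, or replicate 1 or 3 at 20 µg/mL, was left out. By the edgeR test 1598 genes had an unadjusted p under 0.05, and DESeq2 called 42.

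Of the 17 genes, 14 were higher at 500 than at 20 µg/mL and 3 lower, with differences from -0.21 to 0.66. CXCL1 was at 25.5 ± 1.69, 33.1 ± 0.931 and 34 ± 0.477 CPM (SD, n = 3) at 20, 100 and 500 µg/mL, and its difference between 500 and 20 µg/mL was 0.41 with a 95% interval of 0.17 to 0.66 (adjusted p = 0.239). CXCL8 was at 26.7 ± 1.06, 31 ± 1.55 and 31.2 ± 3.03 CPM at the same doses, a difference of 0.23 with an interval of 0.06 to 0.39 (adjusted p = 0.348). CCL20 was at 4.85 ± 0.358, 6.41 ± 0.508 and 6.92 ± 0.425 CPM, a difference of 0.51 with an interval of 0.18 to 0.84 (adjusted p = 0.302). The upper 2 doses of CXCL1 and CXCL8 lay within each other's spread, and the lowest dose was already many-fold above the vehicle.

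Some genes did not follow even that slight order. PIGR was at 5.11 ± 0.707, 4.78 ± 0.447 and 4.43 ± 0.46 CPM at 20, 100 and 500 µg/mL, a difference of -0.21 with an interval of -0.63 to 0.21 (adjusted p = 0.805). CFB was at 4.03 ± 0.399, 4.4 ± 0.414 and 3.97 ± 0.479 CPM, with a difference of -0.03 and an interval of -0.33 to 0.28. IL17C was highest at the middle dose, at 1.25 ± 0.109 CPM, against 0.847 ± 0.403 at 20 and 0.82 ± 0.0718 at 500 µg/mL. All 3 doses share the vehicle, so each dose's difference from it is not independent of the others.

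The other 15 treated groups hold 45 libraries. For 16 of the 17 genes each Sagunja-tang 500 library was above every one of those 45 libraries. Among the 16 are CXCL5, C3, SAA1, IL17C and MIR3142HG. These passed the filter on low counts only through Sagunja-tang libraries, so their low levels elsewhere are not an independent result. CXCL1 had group means of 1.55 to 3.96 CPM there, CXCL8 of 5.1 to 8.36 CPM, CCL20 of 0.14 to 0.456 CPM and PI3 of 4.26 to 7.94 CPM, each highest with Cinnamomi Cortex at 500 µg/mL. In that group CXCL1 was at 4.02, 4.39 and 3.46 CPM, CXCL8 at 8.46, 8.48 and 8.13 CPM and C3 at 0.229, 0.152 and 0.234 CPM, above all vehicle libraries and below all Sagunja-tang ones. The exception was ENSG00000279767, which had 0 counts in every vehicle library, 36, 155 and 73 counts in the Sagunja-tang libraries, and group means of 1.01 to 4.17 CPM in the other treated groups. It was at least 79.5-fold higher with Sagunja-tang than in the vehicle but did not set Sagunja-tang apart.

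Of the goblet cell and WNT genes a minority was called lower against the vehicle and 0 were called against Samul-tang. Of 21 tested goblet and mucin genes of 23, 1 rose (AGR3, 0.37) and 8 fell, and 4 were called lower with the library set term; 8.5% of all genes fell. MUC2, the gel-forming mucin of the colon, was at 18.9, 25.7 and 27.2 CPM in the vehicle and at 16.7, 15.6 and 15.4 CPM with Sagunja-tang, a log2 fold change of -0.58 (SE 0.13, adjusted p = 0.00148). The membrane mucins MUC12 and MUC17 had -0.82 (SE 0.15) and -0.70 (SE 0.15), CREB3L1, a factor of secretory cells, -0.44 (SE 0.07) and MUC5AC -0.33 (SE 0.10). With the term MUC17 lost its call (-0.34, adjusted p = 0.234), and the other 4 named, MUC2 included, kept theirs. MUC5AC lost the call without vehicle replicate 3 (adjusted p = 0.192) or Sagunja-tang replicate 2 (0.0561), and AGR3 without any 1 library other than vehicle replicate 1 (up to 0.177). With Samul-tang MUC2 was at 15.4, 16.3 and 17.5 CPM, overlapping the Sagunja-tang libraries, and 0 members of the list were called between the formulae.

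Of 17 tested WNT targets of 20, 7 fell and 0 rose, where 8.5% of all genes fell, and 2 were called lower with the term. SOX9, a factor of crypt progenitors, was at 176, 207 and 194 CPM in the vehicle and at 146, 154 and 149 CPM with Sagunja-tang (-0.37, SE 0.05), and AXIN2, a feedback inhibitor of WNT, had -0.23 (SE 0.05). Of 36 S phase genes 19 rose and 0 fell, with a median of 0.14, where 11.7% of all genes rose. Of these, 4 were called with the term, among them the replication clamp PCNA (0.29, SE 0.06) and the helicase subunit MCM3 (0.30, SE 0.05). POLD1, a DNA polymerase subunit, and E2F1 had 0.52 and 0.43 and were not called with the term (adjusted p = 0.578 and 0.265). Of the genes of G2 and mitosis 8 of 30 rose and 1 fell, beside 11.7% and 8.5% of all genes. CDK1 rose by 0.39 (SE 0.07), and 5 of the 30 were called higher with the term. None of the WNT, S phase or mitosis genes was called between the formulae by edgeR's test.

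The stress lists held small changes, which are read against the 20.2% of all genes called. Of 30 immediate early genes and regulators of MAPK signalling, 2 rose and 2 fell, with ATF3 at 0.48 (SE 0.15), and 0 were called with the library set term. Of 21 chaperones 6 rose and 1 fell, SDF2L1 of the endoplasmic reticulum at 0.71 (SE 0.16) and HSPB1, a small heat shock protein, at -0.42 (SE 0.12), neither called with the term. With the term 4 chaperones were called higher, where 1.08% of all genes were: DNAJB1 (0.24), HSPA5 (0.22), HSP90AA1 (0.17) and HSP90B1 (0.15), of which the first 2 were also called without it (0.19 and 0.16). HSPA5 lost that call without Sagunja-tang replicate 1 (adjusted p = 0.0821) or vehicle replicate 3 (0.0742). ATF3 was also not called without vehicle replicate 3 or Sagunja-tang replicate 2 (adjusted p up to 0.116), nor HSPB1 without vehicle replicate 3 (0.103). Of 19 ATF4 and amino acid genes 5 rose and 0 fell, of 24 cholesterol genes 3 rose and 3 fell, of 22 apoptosis and p53 genes 4 rose and 3 fell, and of 10 metallothionein and zinc transport genes 0 were called. None of these lists had a member called against Samul-tang.

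Mitochondrially encoded mRNAs made up a smaller share of the counts with Sagunja-tang, 6.64% ± 0.384 against 10.0% ± 1.36 in the vehicle (SD, n = 3), a difference of -3.36 percentage points. The exact two-sided permutation test gave p = 0.1, the smallest that 3 against 3 libraries allow. Of the 13 mRNAs 12 fell, with a median of -0.67, where 8.5% of all genes fell, and 0 were called with the library set term or against Samul-tang. MT-ATP8 had a log2 fold change of -1.37 (SE 0.34), MT-ND6 of -1.01 (SE 0.32) and MT-CO1 of -0.52 (SE 0.16). MT-ND6 and MT-CO1 were not called without vehicle replicate 3 or Sagunja-tang replicate 3 (adjusted p up to 0.0962 and 0.124), nor MT-ND6 without Sagunja-tang replicate 1 (0.0619). Treatment and library set cannot be told apart for these mRNAs.

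Among well expressed genes outside the chemokine and defence lists, the largest increases against the vehicle were not seen against Samul-tang. RN7SL2 and RN7SL1, the RNA of the signal recognition particle, had log2 fold changes of 2.82 (SE 0.60) and 2.58 (SE 0.57) against the vehicle and -0.02 (SE 0.48) and -0.07 (SE 0.45) against Samul-tang. They are near-identical copies and were not called with the library set term. ATP6V1G2-DDX39B, a readthrough of neighbouring genes, had 1.20 (SE 0.31) and TMEM238 had 1.49 (SE 0.40), neither called with the term. The first was also not called without vehicle replicate 3 (adjusted p = 0.0585), nor TMEM238 without Sagunja-tang replicate 1 (0.078). MAMDC4, an endocytic receptor component, and PGGHG, a lysosomal glucosidase of collagen, had 1.09 (SE 0.17) and 0.93 (SE 0.13) and were called with the term, yet lay at 0.03 and -0.13 against Samul-tang. Among decreases, RSC1A1 and ETFRF1 fell by 1.17 and 0.90 on the log2 scale and were not called with the term, ETFRF1 also not without vehicle replicate 3 (adjusted p = 0.0686), while NPIPB5, a member of a multicopy family, fell by 0.80 and was.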

How the data were processed

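RNA of HT29 cells was sequenced as directional libraries with paired reads of 100 bases, per the labels' protocols. The authors deposited RSEM expected counts (estimated counts) per gene, not normalized. The submitters' processing notes name STAR 2.7.3a, RSEM 1.3.3, Trim Galore 0.6.5, FastQC 0.11.9 and GRCh38. The annotation and the strand setting used for counting were not found in the labels, so antisense and overlapping genes are uncertain. Of 273 columns, 60 were matched to the samples and 213 were not used. Values (8.8% not whole) were rounded.

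The members, lists and tests were chosen with earlier results of these data known. All 57 libraries of groups of 3 were fitted by group with edgeR 4.0.16 (R 4.3.3; TMM factors, filterByExpr with a minimum count of 10, quasi-likelihood test, glmTreat at 1.5-fold), with Benjamini-Hochberg adjustment over all 16356 genes and 0.05 as the threshold. The fit was tested on simulated data. Residual degrees of freedom were 38, and the common biological coefficient of variation was 0.0571. Paeoniae Radix, with 1 library a dose, was left out. CPM are counts scaled to a common library size after TMM correction. The genes open to naming were the 15 higher and 15 lower of largest change (called, mean log2 CPM of at least 1, groups not overlapping, ordinary symbol), the inflammation and defence lists, and the 4 largest called members per direction of every other list; a selection of them is named, with all genes past 1.5-fold and a few others picked after their values were seen. Alternatives were RLE factors, no filter, a replicate block, a library set term, the 6 libraries alone, leaving out each replicate, and DESeq2 1.42.0. Pearson correlations of log2 CPM within the groups were 0.990 to 0.993. Every replicate pair differed beyond counting noise (chi-square per degree of freedom 3.21 to 14.2), so none was counted as a duplicate. Symbols and positions are from a gene name table and GENCODE release 29.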

Additional observations from a re-analysis of the deposited data

How the results depend on the processing

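Replicate numbers did not pair the samples (correlations of same-numbered deviations -0.063 to 0.068). Against the vehicle, the count of 3303 called genes was 346 with the library set term and 1425 to 3301 when 1 replicate was left out, lowest without vehicle replicate 3 and 1977 without Sagunja-tang replicate 3. With the replicate block it was 3722. The count of 17 past 1.5-fold was 114 with no filter on low counts (62 higher, 52 lower), 31 in the 6 libraries alone (23 higher, 8 lower), 19 with the replicate block and 12 to 17 when 1 replicate was left out. Against Samul-tang the 52 were 117 with no filter (73 higher, 44 lower), 59 with the replicate block and 39 to 47 when 1 replicate was left out. Against 20 µg/mL the count of 1 was 213 with no filter, 27 with the replicate block, 36 with the library set term, 3 in the 6 libraries alone, 42 with DESeq2 and 0 to 38 when 1 replicate was left out, the highest without replicate 2 of 20 µg/mL. The mitochondrial share differed by -4.01 to -2.66 percentage points when 1 replicate was left out. The cause of these shifts was not tested. Of 88 called genes named in the text, 43 kept their call under every alternative in which they were tested and 40 lost it with the library set term. Of the named genes that were not called, 9 were called under at least 1 alternative, RELA and HSP90AA1 among them. Of the 17, the 16 other than MIR3142HG kept theirs, and no called gene changed direction. Genes at or under 1 CPM rest on few counts a library, which limits the precision of their fold changes.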
